A study of Homo sapiens with 4 samples.

Results

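A set of 10 genes of the absorptive intestinal epithelium were followed in Huh7, a human hepatoma cell line, with and without ISL1, a LIM-homeodomain transcription factor. The 10 members (GUCY2C, RBP2, SI, SLC26A3, CA4, CDX2, CDH17, VIL1, ANPEP and CLDN2) were named as rows of the expression tables, out of 19782 genes listed in at least 1 table. They were chosen by their RPKM differences between ISL1 and control libraries in these same data, so those differences are given as a description and without a test. RNA sequencing covered 4 libraries of Huh7 cells at passage 3, in 2 groups of 2. Controls received a blank lentivirus, and the ISL1 group a lentivirus that expresses ISL1. Neither the vector's promoter nor the time after infection is given, and nothing says that the libraries came from separate cultures, so the spread between libraries may be technical. Replicate numbers 1 and 2 each hold 1 control and 1 ISL1 library.

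One library of the ISL1 group is named for ISL2 in its title, while its table's column names ISL without a number. ISL1 itself stood at 0.0454 RPKM (reads scaled by transcript length and by library depth) in the replicate 1 control, on at least 4 reads, and at 8.22 in the replicate 1 ISL1 library. In replicate number 2 it was listed at 0 in the control, where a count of 0 allows up to 0.0321 RPKM, and at 1801 in the ISL1 library. ISL2 stood at 4.57 and 2.08 RPKM in replicate number 1 and at 3.23 and 13.2 in replicate number 2, control before ISL1. The tables of the 2 replicate numbers differ in how genes were tabulated, so the ISL1 and control libraries are compared within each number. For the ISL1 gene itself the length behind the values was the same, at multiples of 2729 bases in both numbers. At least 833 reads stood behind it in the replicate 1 ISL1 library and at least 144617 in the replicate 2 ISL1 library. The cause of this gap was not tested.

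Enterocytes absorb nutrients through a brush border, a carpet of microvilli bundled by villin and coated with hydrolases such as sucrase-isomaltase and aminopeptidase N. Their identity is set up by CDX2, a caudal-type homeobox factor, together with HNF1, HNF4 and GATA factors that hepatocytes also use. Sucrase-isomaltase is the classic CDX2 target, through a pair of sites in an element close to its start. Liver cells do not normally express most of these genes, whereas liver tumours and cell lines can, and CDH17 is also called liver-intestine cadherin.

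Promoter sequences were matched by symbol in a RefSeq table of build GRCh38.p14, which is not the hg19 build named for these libraries, and 6 of the 10 members had one. The 250 bases before the start site are shown for SI, SLC26A3 and RBP2, members that stood lower with ISL1 in both replicate numbers, for CDX2, the factor of intestinal identity, and for the downstream window of ANPEP, which did not. Capitals mark letters that match a searched motif on either strand.

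SI, chr3:165078497-165078746, minus strand: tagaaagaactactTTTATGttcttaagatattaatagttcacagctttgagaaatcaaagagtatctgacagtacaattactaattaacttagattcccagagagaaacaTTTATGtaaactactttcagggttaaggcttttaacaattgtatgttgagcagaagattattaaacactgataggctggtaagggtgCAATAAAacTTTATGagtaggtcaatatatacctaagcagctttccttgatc

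SLC26A3, chr7:107803224-107803473, minus strand: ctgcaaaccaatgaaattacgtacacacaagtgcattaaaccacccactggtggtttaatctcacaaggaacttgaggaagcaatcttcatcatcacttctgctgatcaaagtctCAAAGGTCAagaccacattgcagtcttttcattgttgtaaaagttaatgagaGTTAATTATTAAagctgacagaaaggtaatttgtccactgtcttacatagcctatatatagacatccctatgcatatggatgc

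RBP2, chr3:139476517-139476766, minus strand: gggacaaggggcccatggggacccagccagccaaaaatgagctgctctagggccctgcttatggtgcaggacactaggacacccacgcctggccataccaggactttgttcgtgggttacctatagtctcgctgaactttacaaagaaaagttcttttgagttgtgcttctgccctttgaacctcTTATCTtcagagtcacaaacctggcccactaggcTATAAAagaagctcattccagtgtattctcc

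CDX2, chr13:27969316-27969565, minus strand: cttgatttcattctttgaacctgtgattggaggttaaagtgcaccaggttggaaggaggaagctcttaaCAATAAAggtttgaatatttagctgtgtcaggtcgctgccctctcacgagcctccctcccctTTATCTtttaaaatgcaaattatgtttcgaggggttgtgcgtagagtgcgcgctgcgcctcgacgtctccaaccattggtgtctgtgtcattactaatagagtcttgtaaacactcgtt

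ANPEP, chr15:89806629-89806878, minus strand: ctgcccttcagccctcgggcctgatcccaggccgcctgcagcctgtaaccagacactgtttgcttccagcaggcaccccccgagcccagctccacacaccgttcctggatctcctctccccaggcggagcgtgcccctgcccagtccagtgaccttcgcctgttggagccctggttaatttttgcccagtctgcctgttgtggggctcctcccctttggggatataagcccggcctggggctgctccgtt

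The motifs searched, chosen with these sequences in view, were TTTATG and CAATAAA for CDX factors, the palindromic HNF1 consensus, CAAAGGTCA and CAAAGTCCA for HNF4, AGATAA for GATA factors, CTAATG for ISL1 and TATAAA for the TATA box. The SI window held TTTATG 3 times, starting 236, 139 and 43 bases before the start site, and CAATAAA at 52 bases, beside the last of them without overlap. TTTATG was present in 9.64% of all 35116 promoter windows of that length and CAATAAA in 3.66%. SLC26A3 held the HNF1 letters at 83 bases and CAAAGGTCA at 135, which 0.0484% and 0.339% of windows hold. In RBP2 a GATA match stood at 65 bases (9.17% of windows) and a TATA box at 31 (10.7%). CDX2's own window held CAATAAA at 181 bases and a GATA match at 119. Neither ANPEP window nor either CLDN2 window held any of the 8 motifs, and CTAATG, found in 5.57% of windows, was in none of those of the 6 members. The GC content was 31.6% for SI, 37.6% for SLC26A3, 45.2% for CDX2, 46.0% and 48.8% for the CLDN2 windows and 50.4% for RBP2. It was 64.4% and 74.0% for the windows of ANPEP, with a median of 58% over all windows. These matches describe letters, not bound sites.

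Library depths, recovered from the steps between RPKM values, ran from 29429964 to 37134267 reads. Of the 10 members, 9 were in all 4 tables and CLDN2 was only in the replicate 2 tables. All 9 passed the minimum of 1 RPKM in at least 2 libraries, with 11085 genes. Huh7's liver identity was visible in ALB (3977 to 8617 RPKM), AFP (4276 to 11542), TTR (161.7 to 482) and APOA1 (350 to 914). SERPINA1 stood at 2.00 and 1.05 RPKM in replicate number 1 and at 820 and 495 in replicate number 2, control before ISL1. Goblet cell MUC2 (0.00371 and 0.0216 RPKM in replicate number 2) and endocrine CHGA (0.0298 and 0.013 in replicate number 1) were near 0. Other goblet and endocrine genes were not, with TFF3 at 10.4 to 42.0 RPKM, ZG16 at 1.15 to 25.9 and CHGB at 1.202 to 4.72. LYZ, a Paneth cell gene also made elsewhere, ran from 39.3 to 51.0 RPKM. Of 10 goblet, Paneth, endocrine, tuft and stem cell markers in all 4 tables, 3 stayed below 1 RPKM in every library. The second control held globin transcripts, with HBB at 398 RPKM against 0, 0 and 0.0495 in the other libraries. Of the 24 markers of blood, stroma and endothelium in any table, the summed level was 13.3 and 5.96 RPKM in replicate number 1 and 1125 and 67.4 in replicate number 2, while PTPRC, the common leukocyte gene, stood at 0.0843 and 0.028 RPKM. Only 11 of these 24 markers were in all 4 tables, so the sums of the 2 replicate numbers cover different genes. HBA1 and HBA2, for example, were in the replicate 2 tables only. The part of these markers in the differences below was not tested.

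In the blank-virus libraries the members spanned a wide range of levels. RBP2, the cellular retinol-binding protein of the gut, was the most abundant in both controls, at 199.7 and 337 RPKM, or percentiles 99.1 and 98.9 of the genes listed in each table. GUCY2C, VIL1, CDX2 and ANPEP stood between 21.3 and 122 RPKM, at percentiles 88.9 to 97.2. CA4, SLC26A3 and SI were lower, between 3.93 and 9.72 RPKM in both controls, at percentiles 44.8 to 78.4. The order of SI, SLC26A3 and CA4, from low to high, was the same in both controls, and with 1 library per replicate number the neighbours were not tested. CDH17 could not be placed, at 2.03 RPKM in the replicate 1 control and 87.5 in the replicate 2 control.

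**Figure D1:**
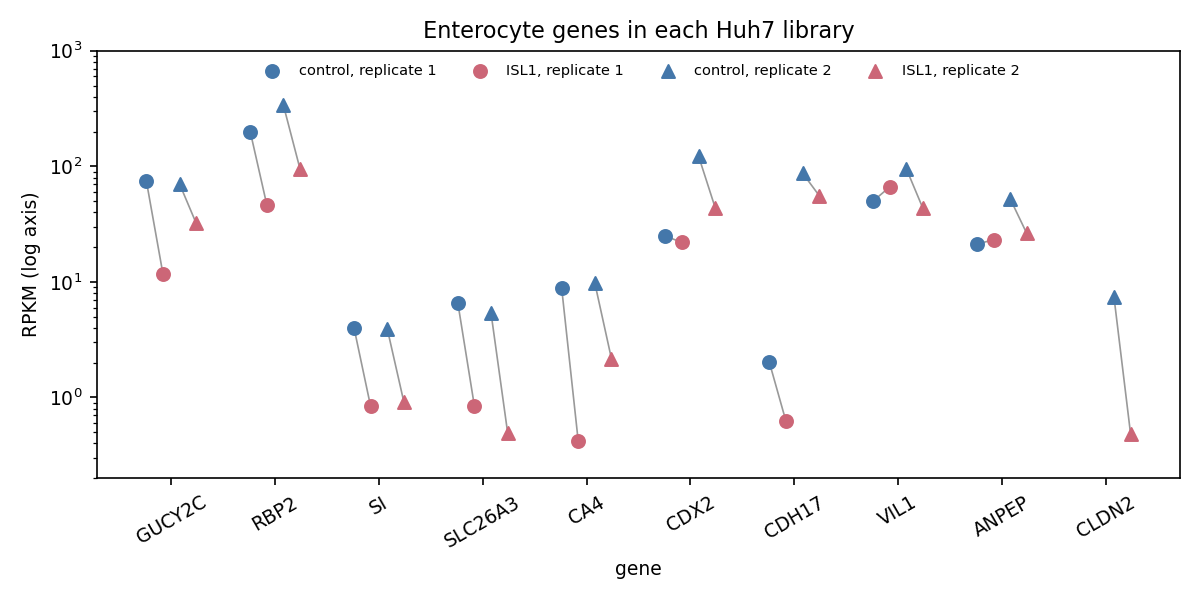
Level of each member in the 4 libraries, in RPKM on a log axis; circles are replicate 1, triangles replicate 2, blue control and red ISL1, and grey lines join the libraries of 1 replicate number (CLDN2 is in the replicate 2 tables only). GUCY2C, RBP2, SI, SLC26A3 and CA4 have both red symbols below both blue ones, and VIL1 and ANPEP have the red circle above the blue one.

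GUCY2C is the apical receptor guanylyl cyclase C, which answers the gut peptides guanylin and uroguanylin by making cyclic GMP. Its transcript stood at 74.2 RPKM in the replicate 1 control and 11.6 in the replicate 1 ISL1 library, and at 70.1 and 32.1 in replicate number 2. Both ISL1 libraries lay below both controls, which were close to each other. In replicate number 1 the level was 6.38-fold lower with ISL1 (95% interval 5.93 to 6.88) and in replicate number 2 it was 2.19-fold lower (2.104 to 2.27). These intervals, exact Clopper-Pearson on the smallest whole reads behind each value, cover counting error only. In bulk RNA, fewer cells with a transcript and less transcript per cell cannot be told apart, here or for any other member.

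The receptor's ligands were at the floor, with GUCA2A at 0 and 0.118 RPKM and GUCA2B at 0 and 0.114 in the replicate 2 tables, control before ISL1 (named for their role). CFTR, the chloride channel at the end of the pathway, stood at 0.960 and 0.0439 RPKM in replicate number 1 and at 0.285 and 0.0222 in replicate number 2, too low to be tested. Of 18 genes of the pathway 12 were in all 4 tables and 7 were tested, with 2 lower in both replicate numbers, 5 of opposite sign and 0 past the limma threshold. No tested gene passed that threshold in either direction (0 of 11085, 0%), and 15 (0.135%) had an unadjusted p under 0.05. The limma fit left out the replicate number, so the gap between the differently tabulated replicate numbers entered its error. The ISL1 gene itself, higher in the ISL1 libraries by 3.14 and 10.8 on the log2(RPKM + 1) scale, did not pass either. With the replicate number in the fit, 0 passed as well. The counts for the lists that follow are therefore of direction alone. Over all tested genes, 19.1% were lower in both replicate numbers, 23.1% higher in both and 57.8% of opposite sign. The median difference of the pathway list was -0.55 in replicate number 1 and -0.80 in replicate number 2 on the log2(RPKM + 1) scale, where all tested genes had -0.0021 and 0.058. SLC9A3R1, a scaffold of microvilli and the most abundant of the list, went from 82.7 to 115 RPKM and from 163 to 93.1. ABCC4, a pump that exports cyclic nucleotides, went from 10.7 to 6.10 and from 15.7 to 11.7.

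RBP2 carries absorbed retinol in the cytosol of enterocytes. It stood at 199.7 and 46.4 RPKM in replicate number 1 and at 337 and 94.7 in replicate number 2, control before ISL1. Both ISL1 values were under both controls, with ratios of 4.31-fold (4.04 to 4.59) and 3.56-fold (3.39 to 3.74) lower. Even so, it stood at percentile 95 or above in every library. Among 29 genes of lipid and retinoid absorption, 18 were tested: 6 were lower in both replicate numbers, 1 higher in both and 11 of opposite sign, with medians of -0.14 and -0.81. FABP1, the fatty acid carrier shared by liver and gut, went from 430 to 299 RPKM and from 1801 to 559. APOB, the structural apolipoprotein of chylomicrons and VLDL, was higher with ISL1 in replicate number 1 (212 to 264 RPKM) and lower in replicate number 2 (394 to 84.2). APOA4, an apolipoprotein made mainly by enterocytes and named after its values were seen, was the list's gene at least 2-fold lower in both, at 4.31 and 0.461 and at 11.8 and 5.28 RPKM.

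Among the members, SI and ANPEP are hydrolases of the brush border. SI, sucrase-isomaltase, splits dietary disaccharides. It stood at 3.995 and 0.836 RPKM in replicate number 1 and at 3.93 and 0.914 in replicate number 2. The libraries of a group lay close to each other and the groups did not overlap, the level being 4.78-fold (4.07 to 5.64) and 4.30-fold (3.63 to 5.12) lower with ISL1. At least 777 reads stood behind the first control value and 187 behind the first ISL1 value, so the interval is narrow even at this low level. ANPEP, aminopeptidase N, trims peptides and is also found on other cells, bile canaliculi of the liver among them. Its levels were 21.3 and 23.1 RPKM in replicate number 1 and 52.5 and 26.3 in replicate number 2. The ISL1 libraries lay on opposite sides of their controls, 1.09-fold higher (1.03 to 1.15) and 1.996-fold lower (1.83 to 2.18).

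Other brush border hydrolases numbered 17, of which 7 were tested, 5 lower in both replicate numbers and 2 of opposite sign, with medians of -0.52 and -0.63. DPP4, dipeptidyl peptidase 4, went from 122 to 64.2 RPKM and from 94.4 to 94.3, a gap of -0.0016 on the log2 scale in replicate number 2. MEP1A, a meprin metalloprotease subunit, went from 71.7 to 49.8 and from 113 to 36.6. GGT1, which breaks down glutathione, went from 0.599 to 0.144 and from 21.6 to 11.98. ALPI, intestinal alkaline phosphatase, stood at 4.10 and 0.295 RPKM in replicate number 1 but at 5.598 and 7.67 in replicate number 2. Lactase (LCT) was listed only in replicate number 2, at 0.0837 and 0 RPKM.

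SLC26A3 exchanges chloride for bicarbonate at the apical membrane, and its loss causes congenital chloride diarrhoea. It was at 6.56 and 0.837 RPKM in replicate number 1 and at 5.34 and 0.493 in replicate number 2, with both ISL1 libraries far under both controls. The ratios were 7.83-fold (6.27 to 9.89) and 10.8-fold (6.94 to 17.8) lower. CA4, a membrane-anchored carbonic anhydrase that supplies bicarbonate at the cell surface, stood at 8.85 and 0.416 RPKM and at 9.72 and 2.16. Its ratio in replicate number 1, 21.3-fold (13.3 to 36.3), rests on at least 18 reads in the ISL1 library and was the widest of any member there, and in replicate number 2 it was 4.50-fold (3.503 to 5.85). On the log2(RPKM + 1) scale, which shrinks differences of low genes, SLC26A3 differed by -2.04 and -2.09 and CA4 by -2.80 and -1.76.

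Of 12 other carbonic anhydrases 4 were tested. Of these 2 were lower in both replicate numbers and 2 of opposite sign, with medians of -0.059 and -0.36. CA2, the main cytosolic enzyme, went from 13.6 to 17.3 RPKM and from 28.0 to 18.1, and CA12, a membrane-bound one, from 0.690 to 0.587 and from 21.6 to 19.98. CA5A, a mitochondrial enzyme of liver, went from 4.5998 to 4.497 and from 7.29 to 2.04. Of 30 nutrient and ion transporters 15 were tested, with 7 lower in both replicate numbers, 8 of opposite sign and medians of -0.083 and -0.44. SLC40A1, the iron exporter ferroportin, went from 50.3 to 45.1 and from 52.2 to 43.3, and ABCB1, a drug efflux pump, from 20.8 to 14.3 and from 19.2 to 16.9. SLC2A2, a glucose carrier of liver, islet and gut, was at 9.96 and 14.0 RPKM in replicate number 1 and at 21.5 and 4.26 in replicate number 2. Scaled by median ratios, the replicate 1 medians turned to 0.065 for the carbonic anhydrases and 0.0088 for the transporters.

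CDX2 directs intestinal identity and binds the promoters of several brush border genes. It was present in the hepatoma line at 24.8 and 22.0 RPKM in replicate number 1 and at 122 and 43.5 in replicate number 2, control before ISL1. The groups overlapped, because the replicate 2 ISL1 library lay above the replicate 1 control. With ISL1 it was 1.13-fold lower (1.06 to 1.202) in replicate number 1, a direction that turned with median-ratio scaling (0.025 on the log2 scale), and 2.79-fold lower (2.68 to 2.92) in replicate number 2. The tables used different transcript lengths for CDX2 in the 2 replicate numbers, at multiples of 2370 and 2090 bases, so its levels are compared within a replicate number.

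The other intestinal transcription factors did not share CDX2's pattern: 24 of 27 were tested, 8 lower in both replicate numbers, 4 higher in both and 12 of opposite sign, with medians of -0.13 and 0.053. The latter median turned to -0.14 and -0.014 with the other scalings. FOXA1, a pioneer factor of liver and gut, went from 37.6 to 28.1 RPKM and from 41.2 to 29.3. SOX9, a factor of progenitor and duct cells, went from 37.3 to 23.6 and from 28.9 to 38.9, and KLF5, of crypt epithelium, from 27.5 to 9.72 and from 36.4 to 44.1. HES1, the Notch target that favours the absorptive lineage, went from 32.7 to 14.0 and from 21.6 to 149. HNF4A, a master factor of hepatocytes and enterocytes named here for its role, was listed at 0.0001 in the replicate 1 control, which was read as 0. It was at 0.0335 RPKM in the replicate 1 ISL1 library and stood at 96.7 and 37.97 RPKM in replicate number 2. CDX1, the other caudal factor, was at 0 and 0.0304 RPKM in the replicate 1 tables.

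VIL1, villin, bundles and severs the actin of microvilli. It stood at 50.03 and 66.3 RPKM in replicate number 1 and at 95.4 and 43.3 in replicate number 2. As with ANPEP, the ISL1 libraries went opposite ways, 1.32-fold higher (1.28 to 1.38) and 2.203-fold lower (2.12 to 2.29). Among 24 other brush border cytoskeleton genes 20 were tested, 9 lower in both replicate numbers, 1 higher in both and 10 of opposite sign, with medians of -0.096 and -0.26. ACTN4, an actin crosslinker, went from 124 to 130.1 RPKM and from 192 to 159, and EPS8, which caps microvillar actin, from 57.7 to 34.2 and from 36.5 to 44.9. BAIAP2L1, a membrane-bending protein, went from 37.0 to 28.4 and from 35.7 to 41.3.

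Of the junction proteins, CDH17 is a cadherin of the lateral membrane of gut epithelium. It was at 2.03 and 0.626 RPKM in replicate number 1 and at 87.5 and 55.9 in replicate number 2, lower with ISL1 within each, by 3.24-fold (2.52 to 4.19) and 1.57-fold (1.52 to 1.62). Across replicate numbers the groups overlapped, with the replicate 2 ISL1 library above the replicate 1 control. CLDN2, a claudin that forms cation and water pores in leaky epithelia, was listed at 7.44 and 0.487 RPKM in replicate number 2. That is 15.3-fold lower (9.86 to 25.0), the widest ratio in replicate number 2, on at least 21 reads in the ISL1 library and with no second pair to set beside it.

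Among 25 other junction genes 20 were tested, 6 lower in both replicate numbers, 3 higher in both and 11 of opposite sign, with medians of -0.25 and 0.12. Median-ratio scaling turned the replicate 2 median to -0.075. CLDN1, a sealing claudin, went from 217 to 166 RPKM and from 125 to 148. EPCAM, an epithelial adhesion protein, went from 108 to 47.8 and from 73.5 to 66.7, and CDH1, the main epithelial cadherin, was at 57.7 and 38.7 RPKM in replicate number 1 and at 109.98 and 74.5 in replicate number 2.

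Set together, 5 of the 9 members in all 4 tables were at least 2-fold lower in both replicate numbers on the log2(RPKM + 1) scale, where 26 of 11085 tested genes (0.235%) were. None was at least 2-fold higher in both, as 0.135% of tested genes were. In replicate number 1 alone 5 members were at least 2-fold lower (2.36% of tested genes) and in replicate number 2 alone 7 (3.68%). The same 5 had both ISL1 libraries below both controls, as had 5.08% of tested genes, and none had both above, as had 5.52%. In all 7 were lower in both replicate numbers, CDX2 not under median-ratio scaling, and 2, VIL1 and ANPEP, had opposite signs. Since values of this contrast chose the members, the shares say nothing further about them. The median difference of the 9 was -1.44 in replicate number 1 and -1.36 in replicate number 2. With a pseudocount of 5 in place of 1, SI and SLC26A3 dropped out and 3 members were at least 2-fold lower in both. With a minimum of 5 RPKM, SI was not tested.

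**Figure D2:**
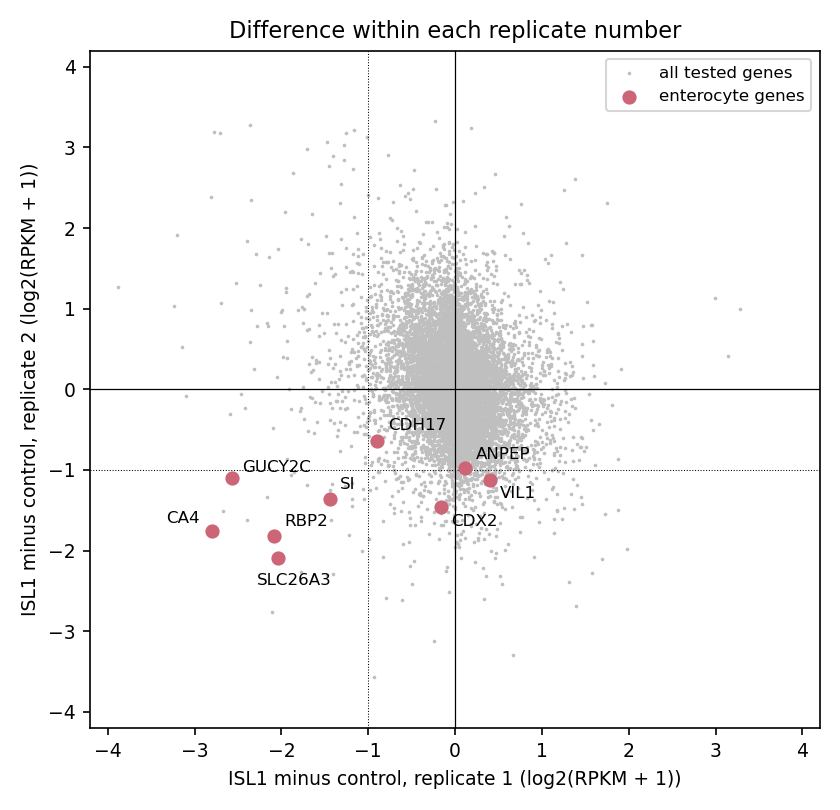
Difference between the ISL1 and the control library in replicate number 1 (horizontal) against replicate number 2 (vertical), each as log2(RPKM + 1), for 9 members (red) and all tested genes (grey, 2 outside the axes); dotted lines mark 2-fold lower. GUCY2C, RBP2, SI, SLC26A3 and CA4 sit in the lower left corner, CDX2 near 0 on the horizontal axis, and VIL1 and ANPEP to the right of 0 and near -1 on the vertical axis.

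The genes outside the members nearest to the members' median pair of differences, by Euclidean distance over the 2 replicate numbers, included GALNT5, CHGB, AGR2 and UNC93A. GALNT5, a transferase that starts O-glycans, lay at a distance of 0.12 on the log2 scale, at 9.41 and 2.85 RPKM in replicate number 1 and at 5.14 and 1.58 in replicate number 2. CHGB, a granin of endocrine granules, went from 4.30 to 1.202 and from 4.72 to 1.48 (distance 0.24). AGR2 was far more abundant, at 616 and 229 and at 444 and 144 RPKM (distance 0.25), and UNC93A went from 1.87 to 0.265 and from 16.0 to 5.63 (distance 0.26). With 4 libraries this likeness is a description.

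**Figure D3:**
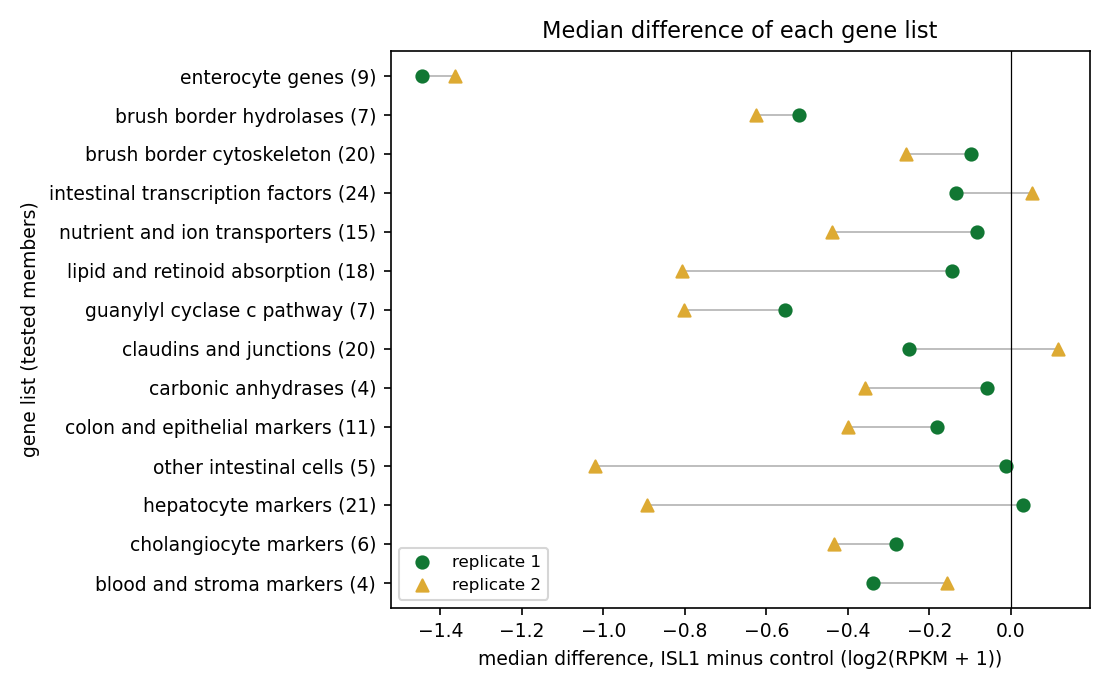
Median difference between ISL1 and control (log2(RPKM + 1)) of the tested genes of each list in replicate number 1 (green circles) and replicate number 2 (yellow triangles), with the number of tested genes in brackets; the members, chosen for this contrast, are the top row. The members' medians are -1.44 and -1.36, and those of the hepatocyte markers 0.031 and -0.89.

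Lists of other cells were read in the same libraries. Among 25 colonic and epithelial markers 11 were tested, 3 lower in both replicate numbers and 8 of opposite sign, with medians of -0.18 and -0.40, the former turning to 0.013 with median-ratio scaling. Of these 11, 2 were at least 2-fold lower in both, TSPAN8 and LGALS2, as were 0.235% of tested genes. TSPAN8, a tetraspanin, differed by -2.39 and -1.62 on the log2 scale. LGALS2, named after its values were seen, differed by -1.71 and -1.19. KRT19, a keratin of ducts and gut, was at 54.1 and 21.0 RPKM in replicate number 1 but at 29.5 and 39.6 in replicate number 2. KRT8 and KRT18, keratins that liver cells also make, stood at 18.9 to 35.0 RPKM in replicate number 1 and at 335 to 788 in replicate number 2. Genes of goblet, Paneth, endocrine, tuft and stem cells gave 5 tested of 28, 2 lower in both and 3 of opposite sign, with medians of -0.012 and -1.02. The former of these turned to 0.18 with median-ratio scaling. Bile duct markers gave 6 tested of 13, 3 lower in both and 3 of opposite sign, with medians of -0.28 and -0.43. KRT7, their defining keratin, was at 0 in 2 libraries and at most 0.316 RPKM. Other duct markers were higher: ANXA4 ran from 64.5 to 112 RPKM, KRT19 from 21.0 to 54.1, SOX9 from 23.6 to 38.9 and SLC4A2 from 1.33 to 67.4. Of the 11 duct markers in all 4 tables, 3 (KRT7, CFTR and PKHD1) stayed below 1 RPKM in every library.

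Hepatocyte markers, all 21 tested, had 8 lower in both replicate numbers, 1 higher in both and 12 of opposite sign, with medians of 0.031 and -0.89. ALB, albumin, went from 7749 to 8617 RPKM and from 7386 to 3977, and AFP, the fetal counterpart, from 11310.5 to 10266 and from 11542 to 4276. In replicate number 2 the liver median was -0.89, and every member also stood lower with ISL1, VIL1, ANPEP and CDX2 included. In replicate number 1 the liver median, 0.031, was the value of CPS1, which was near the floor there at 0.0107 and 0.0327 RPKM. With median-ratio scaling that liver median was 0.21, and 5 liver markers instead of 8 were lower in both replicate numbers. The part of the liver markers in the members' differences was not tested. Blood, stromal and endothelial markers gave 4 tested of 24, 2 lower in both, 1 higher in both and 1 of opposite sign, with medians of -0.34 and -0.16. PECAM1, an endothelial and platelet adhesion protein, was the gene of this list at least 2-fold lower in both, at 8.57 and 2.43 RPKM in replicate number 1 and at 10.3 and 1.29 in replicate number 2. Its part in the members' differences was not tested.

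The replicate numbers were tabulated differently, and the part of this in the members' differences was not tested. The replicate 2 control stood above the replicate 1 control by a median of 2.29-fold over tested genes. That ratio was 1.13 for the 2979 genes with 1 transcript in the current RefSeq table, 5.92 for the 2038 with 2 and 15.2 for the 5193 with 3 or more. SLC26A3, GUCY2C, SI, RBP2 and VIL1, with 1 transcript each, had ratios of 0.815, 0.945, 0.983, 1.69 and 1.91. CA4 and CDX2, with 2 each, had 1.098 and 4.90, ANPEP, with 3, had 2.47, and CDH17, with 14, had 43.2. The controls lay closest to each other for the 5 members at least 2-fold lower in both replicate numbers, and the transcript lengths behind the values were the same, up to a whole factor, for 8 of the 9 members.

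**Figure D4:**
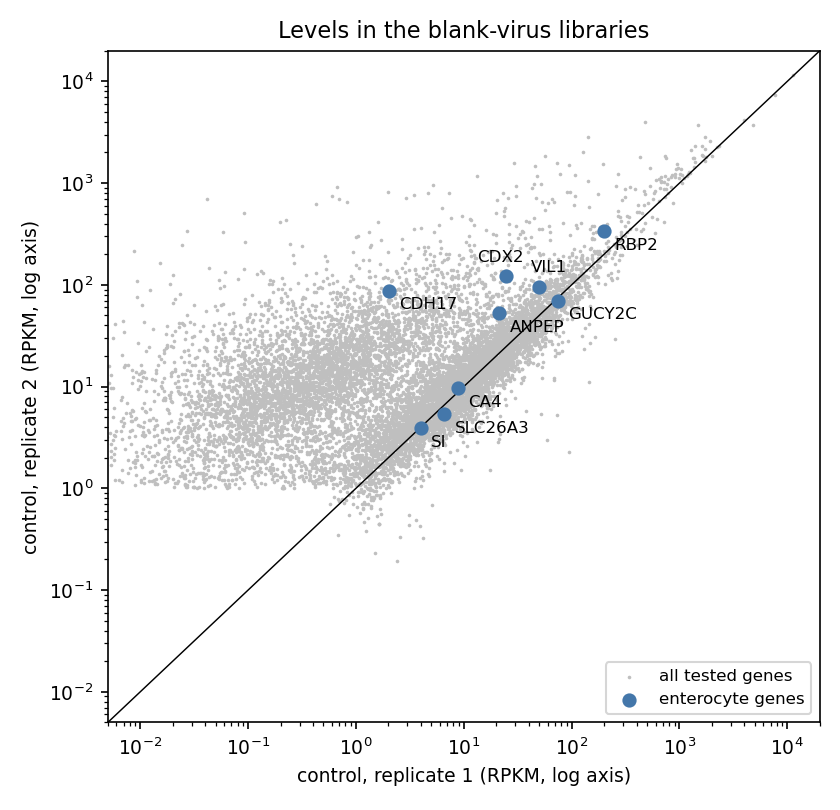
Level in the replicate 1 control (horizontal) against the replicate 2 control (vertical), in RPKM on log axes, for 9 members (blue) and tested genes (grey; 98 with a control at 0 and 15 below the axes are not drawn); the line marks equal levels. SI, SLC26A3, CA4 and GUCY2C lie on or next to the line, and CDH17 lies in a cloud of genes that are much lower in the replicate 1 control.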

How the data were processed

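Each of 4 libraries came as 1 table of gene symbols and RPKM, deposited by the authors; per the submitters' processing notes, CASAVA 1.4, BWA and build hg19 were used. Neither the annotation nor the counting program is given in the sources used here. The files of replicate number 1 listed 16640 genes and those of replicate number 2 listed 17197; 0.0001 in the former was read as 0. Tables were joined by symbol (14055 genes in all 4), and those with at least 1 RPKM in 2 libraries were tested (11085) with limma 3.58.1 in R 4.3.3 on log2(RPKM + 1), ISL1 against control, two-sided, with Benjamini-Hochberg adjustment at 0.05. With 2 libraries a group, the smallest exact permutation p is 0.333. The fit was tested on simulated data with independent noise and no difference between replicate numbers, unlike these libraries. That run does not show how often the fit would call a changed gene here.

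Depth and reads were recovered with Python 3.11.15: the reciprocals of low RPKM values, rescaled, are whole numbers with the depth as a common divisor (candidates were ranked by how often the lengths matched annotated transcripts). With those depths 99.9% (replicate 1) and 100.0% (replicate 2) of ISL1 values gave whole reads over a whole length of up to 20000 bases, within a relative tolerance of 1e-12. Reads are the smallest whole numbers that share a length, so the true counts may be multiples and the intervals narrower; no count model was run.

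Members and 13 gene lists were chosen with earlier results of these data known. Named genes are the members, ISL1, ISL2, up to 4 genes per list with the highest mean level, and the 5 nearest in difference, of which 1 is not reported here; others are named with the reason beside them. Alternatives were another pseudocount, filter or scaling, the replicate block, a fit without trend, and leaving out each library.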

Additional observations from a re-analysis of the deposited data

How the results depend on the processing

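Under every alternative run, 0 genes passed the limma threshold (15 with an unadjusted p under 0.05, and 0 to 34 over the alternatives other than the replicate block). With the replicate number as a block 0 passed as well, with 260 unadjusted, and the deviations of same-numbered libraries from their group means correlated at 0.882 across genes; with only 2 numbers this is a hint from the data, not the design. The members at least 2-fold lower in both replicate numbers were 5 with a pseudocount of 0.1, without a filter and with either other scaling, 4 with a 5 RPKM minimum, which leaves SI untested, and 3 with a pseudocount of 5. Over all genes, the count lower and higher was 26 and 15, and 69 and 31 with a pseudocount of 0.1, 10 and 4 with one of 5. In replicate number 1 alone (chosen after seeing the data) it was 262 and 190, and in replicate number 2 alone 408 and 719, with 5 and 7 members lower. Genes with both ISL1 libraries below both controls were 563, but 923 without a filter, 375 with a 5 RPKM minimum, 227 with median-ratio and 309 with upper-quartile scaling; those above were 612, but 259 and 280 with these scalings. Leaving out 1 library (also chosen after seeing the data), the count below ran from 1299 to 4699 genes and from 5 to 9 members, and the count above from 1438 to 5355 genes and from 0 to 1 member. The 9 members came without the replicate 1 control, and the 1 above, ANPEP, without the replicate 2 control. Median-ratio scaling moved the median difference of all tested genes to 0.09 and -0.12; the replicate 1 difference of CDX2 then turned to 0.025. Leaving out 1 library, the pooled log2 fold change ran from -1.94 to 0.31 for CDX2, from -3.33 to 1.80 for CDH17, from -0.82 to 0.097 for VIL1 and from -1.06 to 0.21 for ANPEP, and it kept its sign for the other 5 members, between -2.86 and -1.14. The cause of these shifts was not tested. Levels under about 0.1 RPKM rest on a few reads per kilobase.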
